A study of Mus musculus with 2 samples.

Results

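The cyclins, the cyclin-dependent kinases (CDKs) and the CDK inhibitors were taken as all genes whose GENCODE mouse M21 symbols consist of Ccn, Cdk or Cdkn followed by their letter and number, leaving out Cdkn1a, Cdkn1c and Ccng1. The rule found 48 genes in the annotation, of which 44 had a row among the 24223 genes counted in each library. The other 4 (Ccna1, Ccnb3, Cdkn2a and Cdkn2b) were not analysed here. By function, 16 of the 44 belong to the cell cycle engine, 14 to kinases that act on transcription, and 14 to neither class. Of the 44, 43 reached a level of at least 1 CPM (counts per 1000000 scaled counts) in either library, and Cdk15, with 4 counts in Ctrl and 2 in DAC, did not.

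RNA-seq was performed on CT26, a colorectal carcinoma cell line of BALB/c mouse origin, with 1 library from DAC-treated cells and 1 from control cells (Ctrl). Decitabine (DAC), a cytosine analog that traps DNA methyltransferases, was given at 1 μM in 3 doses 24 h apart, and the cells were then kept for 24 h in medium without drug. The Ctrl cells were handled in parallel without DAC, and both libraries came from this single line grown in culture.

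Cyclins rise and fall through the division cycle and switch on the CDKs they bind. D-type cyclins with CDK4 or CDK6 begin the phosphorylation of the retinoblastoma protein RB, which frees E2F factors to transcribe S phase genes. Cyclin E with CDK2 completes that step, and cyclins A and B with CDK2 and CDK1 carry the cell through S phase and mitosis. INK4 proteins bind CDK4 and CDK6, whereas p27 (Cdkn1b) binds cyclin-CDK complexes. Other family members act outside the division cycle and phosphorylate RNA polymerase II or its partners, among them P-TEFb (CDK9 with a cyclin T), the Mediator kinases and the cyclin K kinases.

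The counts summed to 34221886 in Ctrl and 35163420 in DAC, so that 1 CPM stood for 32.0 and 37.6 counts after scaling by edgeR's TMM factors. Every ratio below is DAC over Ctrl CPM, followed in parentheses by its exact (Clopper-Pearson) 95% counting interval. These intervals cover counting error only, and with 1 library per group no difference had a replicate check or a test between conditions. A gene was called higher or lower when it reached 1 CPM in either library, its ratio reached 2 or fell to 0.5 or below, and the interval lay on the same side of 1. By this rule 1468 of 13545 genes (10.8%) were higher in DAC and 716 (5.29%) were lower. Library totals in place of TMM factors raised every log2 ratio by 0.19 and moved the median of all genes from -0.02 to 0.18, so that 12 of the 43 members changed sign, all of them with a ratio between 0.881 and 0.997. Under library totals, DESeq2 size factors, upper-quartile factors and centring on GC content alike, 14 members stayed above 0 on the log2 scale, 14 stayed below and 15 changed sign. The colonic markers were scarce in Ctrl, with 4 counts of Cdx2 and 0 of Vil1. Of the general epithelial markers, Cdh1 had 0 counts in Ctrl but Krt18 had 1797 (56.1 CPM). The 7 mesenchymal markers ran from 30.2 to 6577 CPM in Ctrl, at a summed level of 8119 CPM in Ctrl and 3487 in DAC. The most highly counted of them was Fn1, which fell from 210619 to 65467 counts (6577 to 1742 CPM, ratio 0.265). Fn1 was the only one of the 7 called, and the lower sum in DAC came mainly from it. The other mesenchymal markers had ratios from 0.916 (Zeb1) to 1.20 (Twist1), and Vim had 36138 and 48746 counts. Among 7 epithelial markers with a row, Krt8 had 5 counts in Ctrl and 4445 in DAC. The 3 markers past the CPM minimum (Krt8, Krt18 and Krt19) summed to 56.6 CPM in Ctrl and 215 in DAC. Krt8 (0.156 CPM in Ctrl) and Krt19 (0.375) passed that minimum only through DAC, the library where they were higher. Of the 2 immune markers with a row, the leukocyte marker Ptprc had 3 and 0 counts and Cd68 had 470 and 809 (ratio 1.47, interval 1.31 to 1.65), and none of 4 endothelial markers exceeded 19 counts. The part of these markers in the members' values was not tested.

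Of the 43 members, 1 was called higher in DAC, against 10.8% of all genes, and 1 was called lower, against 5.29%. Among the 9340 genes with a mean CPM of at least 10, 41 of them members, 390 were higher and 345 lower. The member called higher was Ccne1, which encodes cyclin E1, and the one called lower was Ccnd3, which encodes cyclin D3. With a 1.5-fold limit, 3 members were higher (Ccne1, Cdkn2c and Cdk18), against 19.3% of all genes. By the same limit 5 were lower (Ccnd3, Cdkn2d, Ccnt2, Cdk14 and Cdk17), against 15.2%. Among those 9340 genes, 1074 were higher and 1384 lower by that limit. Within 1.5-fold of Ctrl lay 35 of the 43 members (81.4%), compared with 65.1% of all genes and 73.7% of genes with a mean CPM of at least 10. In these bulk libraries, fewer cells that express a gene and less of its RNA per cell cannot be told apart.

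**Figure D1:**
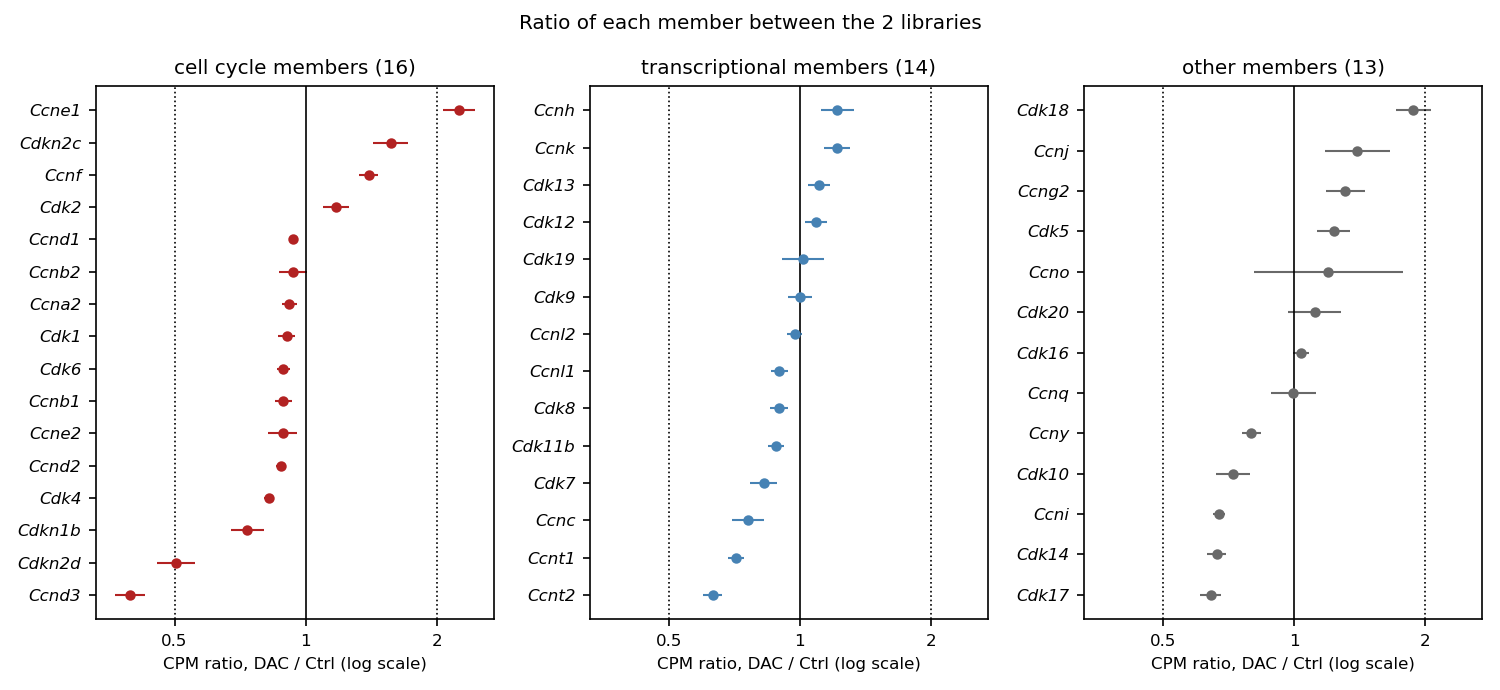
Ratio of DAC to Ctrl CPM (log axis) for the 43 members, with points for ratios, lines for 95% counting intervals and dotted lines at 0.5 and 2. Ccne1 (2.24) and Ccnd3 (0.394) lie outside the dotted lines, while Cdkn2d (0.504) and Cdk18 (1.88) lie just inside; members between 0.881 and 0.997 pass above 1 when library totals replace TMM factors.

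Both called members belong to the G1 machinery, and in each case a close paralog was not called. Ccne1 had 746 counts in Ctrl and 1964 in DAC, a ratio of 2.24 (2.06 to 2.44). Ccne2, the other E-type cyclin, had 1334 and 1385 counts, a ratio of 0.885 (0.820 to 0.955). The higher E-type signal in DAC was thus carried by Ccne1, and the sign of the Ccne2 difference turned with library totals and with GC centring. Compared per kilobase of exons, so that genes of different length can be set side by side, Ccne1 rose from 8.75 to 19.6 CPM per kb and Ccne2 had 11.9 and 10.5. Ccne1 therefore made up 42.3% of the E-type level in Ctrl and 65.1% in DAC. The Ccne1 to Ccne2 ratio was 2.54 times higher in DAC (2.26 to 2.84), a value that no common scaling of the libraries can move. GC centring, which shifts genes by their GC content, brought the pair closer. It changed the log2 ratio of Ccne1 from 1.17 to 1.06 and that of Ccne2 from -0.18 to 0.19. Ints8, annotated on the opposite strand, covers 17.4% of the exon bases of Ccne2 and had 1609 and 2159 counts. Reads in that overlap cannot be assigned with certainty, which limits the Ccne2 ratio and the E-type shares. Ccne1 overlaps no other gene.

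Among D-type cyclins the small member fell and the dominant one was close to its Ctrl level. Ccnd3 had 1953 counts in Ctrl and 904 in DAC, 2.54-fold lower (2.34 to 2.75). Ccnd1 had 27233 and 29831 counts, a ratio of 0.934 (0.918 to 0.949) that passed above 1 by library totals. Ccnd2 had 12845 and 13185 counts, a ratio of 0.875 (0.854 to 0.896). Ccnd1 had the highest level of all members, 181 CPM per kb in Ctrl and 169 in DAC. Its share of the D-type level was 78.5% in Ctrl and 80.8% in DAC, whereas Ccnd3 went from 3.02% to 1.31%. The Ccnd3 share depended on the length used, and by its longest transcript it was 5.16% and 2.28%. The Ccnd1 to Ccnd3 ratio was 2.37 times higher in DAC (2.18 to 2.57). LTO1, annotated on the opposite strand, covers 23.4% of the exon bases of Ccnd1, and Bysl covers 4.11% of those of Ccnd3. Bysl had 2142 and 3295 counts, and since the sources used here do not say whether counting used strand, reads in such overlaps cannot be assigned with certainty.

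None of the kinases that these cyclins activate was called. Cdk4 had 14280 counts in Ctrl and 13769 in DAC, a ratio of 0.822 (0.803 to 0.841). Cdk6 had 6825 and 7116 counts, a ratio of 0.889 (0.859 to 0.919). Cdk4 held 90.0% of their joint level per kb in Ctrl and 89.3% in DAC, so the balance of the 2 kinases moved by less than 1 percentage point. Tspan31 on the opposite strand covers 19.7% of the exon bases of Cdk4 and had 4089 and 3699 counts. Cdk2, the partner of cyclin E, had 1440 and 1979 counts, a ratio of 1.17 (1.09 to 1.25).

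The INK4 inhibitors had ratios on opposite sides of 1, under every scaling and after GC centring. Cdkn2c, which encodes p18, had 718 counts in Ctrl and 1319 in DAC, a ratio of 1.57 (1.43 to 1.72). Cdkn2d, which encodes p19 of the INK4 family, had 1046 and 619 counts, 1.98-fold lower (1.79 to 2.19), just short of a call. Cdkn2d was called lower when log2 ratios were centred on GC content, at -1.17. Per kb, Cdkn2c was 28.7% of the summed level of the pair in Ctrl and 55.5% in DAC, so the more abundant of the pair was Cdkn2d in Ctrl and Cdkn2c in DAC. The Cdkn2c to Cdkn2d ratio was 3.10 times higher in DAC (2.71 to 3.55), the widest shift among the 11 pairs compared. Neither gene shares a 50-base stretch with another gene or overlaps one. Cdkn1b had 1099 and 946 counts, a ratio of 0.734 (0.672 to 0.801). Summed over these 3 inhibitors, the level was 36.6 CPM per kb in Ctrl and 29.1 in DAC.

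**Figure D2:**
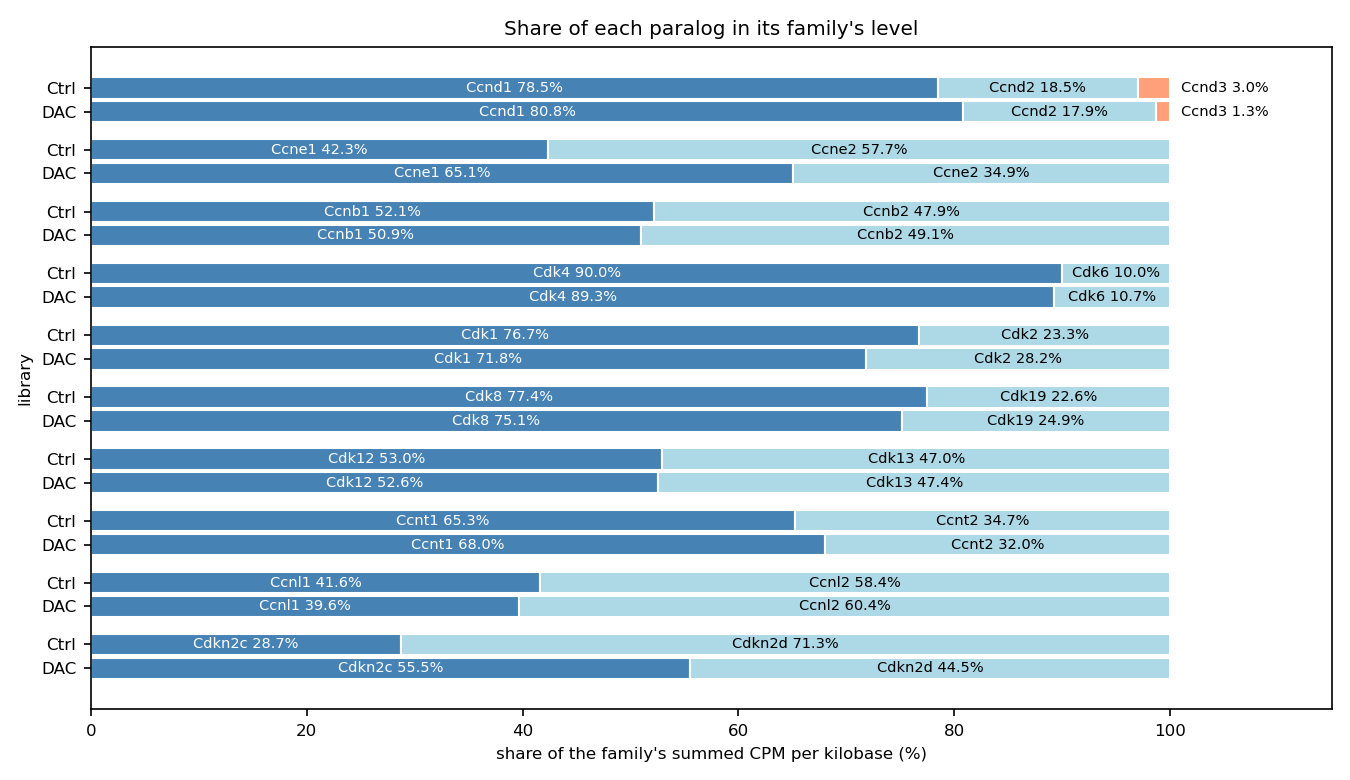
Share of each paralog in its family's summed CPM per kilobase of exons, with 1 bar per library and 1 colour per gene. Ccne1 goes from 42.3% to 65.1% and Cdkn2c from 28.7% to 55.5%, while Cdk4 (90.0% and 89.3%) and Cdk12 (53.0% and 52.6%) hardly move.

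The promoters of the 4 cell cycle members beyond 1.5-fold, and of Cdk18, the member with the highest ratio outside both classes, are shown because DAC inhibits the enzymes that methylate cytosine, which in mammals act mainly at CpG dinucleotides. Methylation was not analysed here. Each is a 300-base RefSeq window (GRCm38.p6), from 250 bases before to 50 after an annotated start, written 5′ to 3′ on the gene's strand with every CpG in capitals. The Ccne1 window lies at chr7:38107441-38107740 (minus strand) and holds 41 CpG. The Ccnd3 windows lie at chr17:47504801-47505100 and chr17:47593217-47593516 (plus strand), with 15 and 28 CpG. The Cdkn2c window lies at chr4:109666707-109667006 (minus strand) with 33 CpG, and its other annotated window holds 8. The Cdkn2d window lies at chr9:21291160-21291459 (minus strand) with 22 CpG, and that of Cdk18 at chr1:132139636-132139935 (minus strand) with 6.
Ccne1: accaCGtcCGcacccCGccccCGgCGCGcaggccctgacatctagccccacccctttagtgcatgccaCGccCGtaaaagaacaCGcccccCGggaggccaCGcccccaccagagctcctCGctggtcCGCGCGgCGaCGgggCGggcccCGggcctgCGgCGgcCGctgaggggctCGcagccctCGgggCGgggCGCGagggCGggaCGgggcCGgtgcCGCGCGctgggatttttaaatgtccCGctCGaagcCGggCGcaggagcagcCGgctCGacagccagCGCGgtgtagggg
Ccnd3, upstream start: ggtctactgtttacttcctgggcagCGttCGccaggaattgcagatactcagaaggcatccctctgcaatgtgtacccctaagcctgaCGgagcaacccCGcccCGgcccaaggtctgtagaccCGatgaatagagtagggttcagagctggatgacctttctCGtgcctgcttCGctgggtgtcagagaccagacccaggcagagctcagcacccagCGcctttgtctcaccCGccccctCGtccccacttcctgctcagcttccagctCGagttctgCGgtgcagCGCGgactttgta
Ccnd3, downstream start: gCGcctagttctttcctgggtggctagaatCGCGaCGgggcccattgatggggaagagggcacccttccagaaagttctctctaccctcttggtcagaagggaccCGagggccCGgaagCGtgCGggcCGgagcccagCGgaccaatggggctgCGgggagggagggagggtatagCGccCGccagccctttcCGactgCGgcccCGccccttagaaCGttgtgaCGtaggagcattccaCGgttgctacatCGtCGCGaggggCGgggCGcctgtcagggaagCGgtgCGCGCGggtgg
Cdkn2c: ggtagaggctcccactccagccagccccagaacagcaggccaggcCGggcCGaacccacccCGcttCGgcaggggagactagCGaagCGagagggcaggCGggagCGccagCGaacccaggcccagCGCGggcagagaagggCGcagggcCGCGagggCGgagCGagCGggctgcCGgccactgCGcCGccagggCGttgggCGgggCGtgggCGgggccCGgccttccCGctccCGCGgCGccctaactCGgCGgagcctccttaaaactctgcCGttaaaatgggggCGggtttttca
Cdkn2d: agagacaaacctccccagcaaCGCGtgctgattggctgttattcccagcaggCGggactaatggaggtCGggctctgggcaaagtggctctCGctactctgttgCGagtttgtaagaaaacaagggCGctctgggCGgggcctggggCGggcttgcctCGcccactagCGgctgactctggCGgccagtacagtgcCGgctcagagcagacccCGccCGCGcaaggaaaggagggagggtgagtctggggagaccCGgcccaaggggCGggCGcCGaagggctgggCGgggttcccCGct
Cdk18: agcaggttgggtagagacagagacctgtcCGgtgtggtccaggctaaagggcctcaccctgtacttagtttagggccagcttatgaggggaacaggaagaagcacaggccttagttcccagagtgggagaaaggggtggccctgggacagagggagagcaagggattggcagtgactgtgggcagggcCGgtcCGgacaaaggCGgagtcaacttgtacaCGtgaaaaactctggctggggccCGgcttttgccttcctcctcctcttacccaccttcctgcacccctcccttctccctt

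CpG-rich promoters were the rule among the members. The RefSeq table matched 35 of the 44 members with 38 windows, and no entry was matched for Ccna2, Ccnd1, Ccnd2, Ccne2, Ccnh, Ccny, Cdk5, Cdk17 and Cdk19. The median was 26.5 CpG per window, compared with 7 over all 32851 promoters of the table, and 35 of the 38 held at least 10, compared with 43.5% of all. The window with the fewest CpG was that of Cdk18 (6), and the one with the most was that of Cdk14 (53). Windows with similar CpG counts belonged to genes with ratios on either side of 1, such as Ccne1 with 41 (ratio 2.24) and Ccnt1 with 37 (ratio 0.714). The 32851 promoters were not limited to genes past the CPM minimum. No comparison with promoters of such genes was made, here or for the motifs below.

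**Figure D3:**
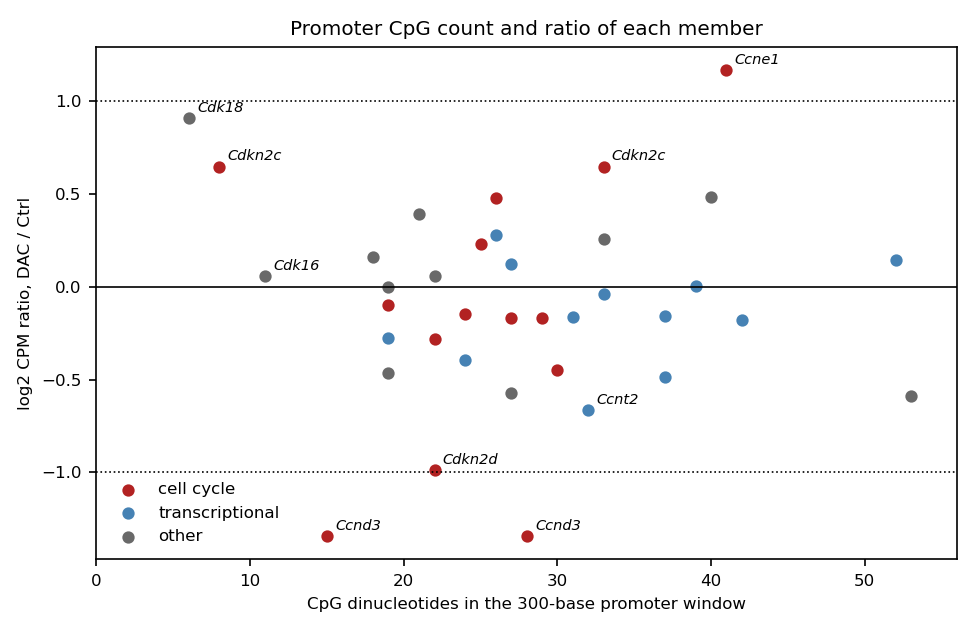
CpG dinucleotides per 300-base promoter window against the log2 CPM ratio of DAC to Ctrl, with 1 point per window and dotted lines at a 2-fold difference. Cdk18 (6 CpG, log2 ratio 0.91) and Ccne1 (41 CpG, 1.17) lie far apart on the CpG axis; Ccnd3 and Cdkn2c appear at each of their windows.

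The A- and B-type cyclins and Cdk1 had similar ratios, whereas Cdk2, which also binds cyclin A, had the ratio of 1.17 given above. Ccna2, the S phase and G2 cyclin, had 5061 counts in Ctrl and 5446 in DAC, a ratio of 0.917 (0.882 to 0.953). Exosc9 on the opposite strand covers 12.5% of the exon bases of Ccna2 and had 2038 and 1580 counts. Ccnb1 had 4060 and 4233 counts, with a ratio of 0.889 (0.851 to 0.928), whereas Ccnb2 had 1353 and 1481, a ratio of 0.933 (0.866 to 1.00). Cdk1, the mitotic kinase, had 3769 and 3999 counts, a ratio of 0.904 (0.865 to 0.946). The 4 ratios lay within 0.889 to 0.933, and all 4 passed above 1 by library totals. Ccnb1 shares 42.1% of its 50-base stretches with other genes, mostly Ccnb1-ps, which had 88 counts in each library. Ccnf, whose cyclin is the substrate receptor of a ubiquitin ligase rather than a CDK activator, had 2423 and 3964 counts, a ratio of 1.39 (1.33 to 1.47). The 6 markers of cycling cells, measured beside these genes, had ratios from 0.569 (Mcm2) to 1.02 (Pcna), with Mki67 at 0.634. Intervals of 5 of the 6 lay below 1, and 0 were called. Their summed level was 2111 CPM in Ctrl and 1528 in DAC, and their part in the values of the members was not tested.

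The Cdk1 promoter is shown because it holds all 3 motifs searched on both strands: an E2F site (TTTGGCGC, TTTCCCGC, TTTCGCGC or TTTGCCGC), the CHR element (TTTGAA) and CCAAT, none of which overlap there. The window lies at chr10:69352863-69353162 (GRCm38.p6, minus strand) and is written 5′ to 3′ with the matches in capitals, CCAAT appearing as its reverse complement ATTGG. Counted from the annotated start, the E2F match begins at -131 and the CHR matches at -71 and -15.
Cdk1: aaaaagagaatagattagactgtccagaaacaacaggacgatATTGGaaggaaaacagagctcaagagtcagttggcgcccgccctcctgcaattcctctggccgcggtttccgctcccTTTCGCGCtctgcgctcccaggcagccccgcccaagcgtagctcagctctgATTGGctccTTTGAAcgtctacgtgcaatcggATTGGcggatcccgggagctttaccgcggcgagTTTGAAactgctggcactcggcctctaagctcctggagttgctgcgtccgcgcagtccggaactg
E2F letters were found in 2 of the 38 member windows, those of Cdk1 and Cdk2, compared with 2.27% of all promoters. CHR was found in 5 windows (Ccnb2, Ccnf, Cdk1, Ccni and Cdk16), compared with 17.9% of all promoters. CCAAT was found in 18 of 38, 9 of them among the 14 windows of cell cycle members, compared with 37.4%. Ccnb2, Ccnf and Cdk1 held both CHR and CCAAT, and their ratios were 0.933, 1.39 and 0.904.

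Over the 16 cell cycle members the median log2 ratio was -0.16, compared with -0.02 over all genes, and the median size of the difference was 0.21, compared with 0.40. Relative to all genes the median was -0.14, and it was -0.02 after GC centring. Intervals lay above 1 for 4 of these members (Ccne1, Cdkn2c, Ccnf and Cdk2) and below 1 for 11, against 37.4% and 40.3% of all genes. Among genes with a mean CPM of at least 10, which include all 16 members, those shares were 34.6% and 48.8%. The median log2 ratio of such genes was -0.09 and their median size of the difference 0.34. By library totals the cell cycle class turned from 4 members above 0 on the log2 scale and 12 below to 11 above and 5 below. The median size of its differences was then 0.092.

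Of the 14 members that act on transcription, 0 were called higher, against 10.8% of all genes, and 0 were called lower, against 5.29%. All 14 had at least 18.5 CPM in each library. Among the 9340 genes with a mean CPM of at least 10, calls were fewer, with 390 higher and 345 lower. The ratios of the 14 members ran from 0.631 to 1.22, and 13 of 14 lay within 1.5-fold, compared with 73.7% of those 9340 genes. The median log2 ratio of the class was -0.10, or -0.08 relative to all genes, a sign that turned to 0.09 after GC centring. The median size of the difference in the class was 0.17, or 0.21 by library totals. Over those 9340 genes it was 0.34 with TMM factors.

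Within P-TEFb, the elongation factor that releases paused RNA polymerase II, the cyclins and the kinase separated. Ccnt2 had 3592 counts in Ctrl and 2658 in DAC, a ratio of 0.631 (0.600 to 0.663). Ccnt1 had 5004 and 4195 counts, a ratio of 0.714 (0.686 to 0.745). Cdk9 had 1857 and 2182 counts, a ratio of 1.00 (0.941 to 1.07). Per kb, the summed cyclin T level was 26.2 CPM in Ctrl and 17.9 in DAC, while Cdk9 stayed at 12.6. Both cyclins remained below 0 on the log2 scale under every scaling and after GC centring, at -0.40 for Ccnt2 and -0.32 for Ccnt1. The genes that hold P-TEFb inactive in the 7SK particle had ratios above 1. Hexim1, the inhibitory protein of that particle, had 1128 and 1943 counts, a ratio of 1.47 (1.36 to 1.58). Mepce, which caps 7SK RNA, had 1675 and 3037 counts, with a ratio of 1.55 (1.46 to 1.64), whereas Larp7, which binds it, had a ratio of 1.19 (1.11 to 1.28). None of the 3 was called, and they were singled out after their values were seen.

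In the Mediator kinase module, Ccnc, the cyclin, had 7.35 and 5.58 CPM per kb (ratio 0.759, interval 0.699 to 0.825). Its kinases Cdk8 (10.9 and 9.74 CPM per kb) and Cdk19 (3.17 and 3.23) had ratios of 0.894 and 1.02. Cdk8 held 77.4% of their joint level in Ctrl and 75.1% in DAC, or 89.6% and 88.3% by longest transcripts. Cdk8 passed above 1 by library totals and after GC centring. The ratios of the cyclin K kinase genes (Ccnk, Cdk12 and Cdk13) stayed above 1 under every scaling and after GC centring, as did that of Cdk19. Ccnk had 14.7 and 17.9 CPM per kb, a ratio of 1.22 (1.14 to 1.3). Cdk12 (5.61 and 6.11 CPM per kb) and Cdk13 (4.99 and 5.52), which phosphorylate the polymerase tail with cyclin K, had ratios of 1.09 and 1.11.

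The CDK-activating kinase of TFIIH split between its subunits. Cdk7 had 1658 counts in Ctrl and 1606 in DAC, from 14.0 to 11.5 CPM per kb, a ratio of 0.825 (0.770 to 0.885). Ccnh, its cyclin, had 876 and 1252 counts, from 8.81 to 10.7 CPM per kb, a ratio of 1.22 (1.12 to 1.33). Mnat1, the assembly subunit, had 1909 and 1164 counts, a ratio of 0.520 (0.483 to 0.559). Cdk7 stayed below 1 and Ccnh above it under every scaling and after GC centring. In the cyclin L complex, which acts in splicing, Cdk11b (34.7 and 30.6 CPM per kb), Ccnl1 (18.7 and 16.8) and Ccnl2 (26.3 and 25.6) had ratios of 0.881, 0.896 and 0.973, each of which passed above 1 by library totals.

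**Figure D4:**
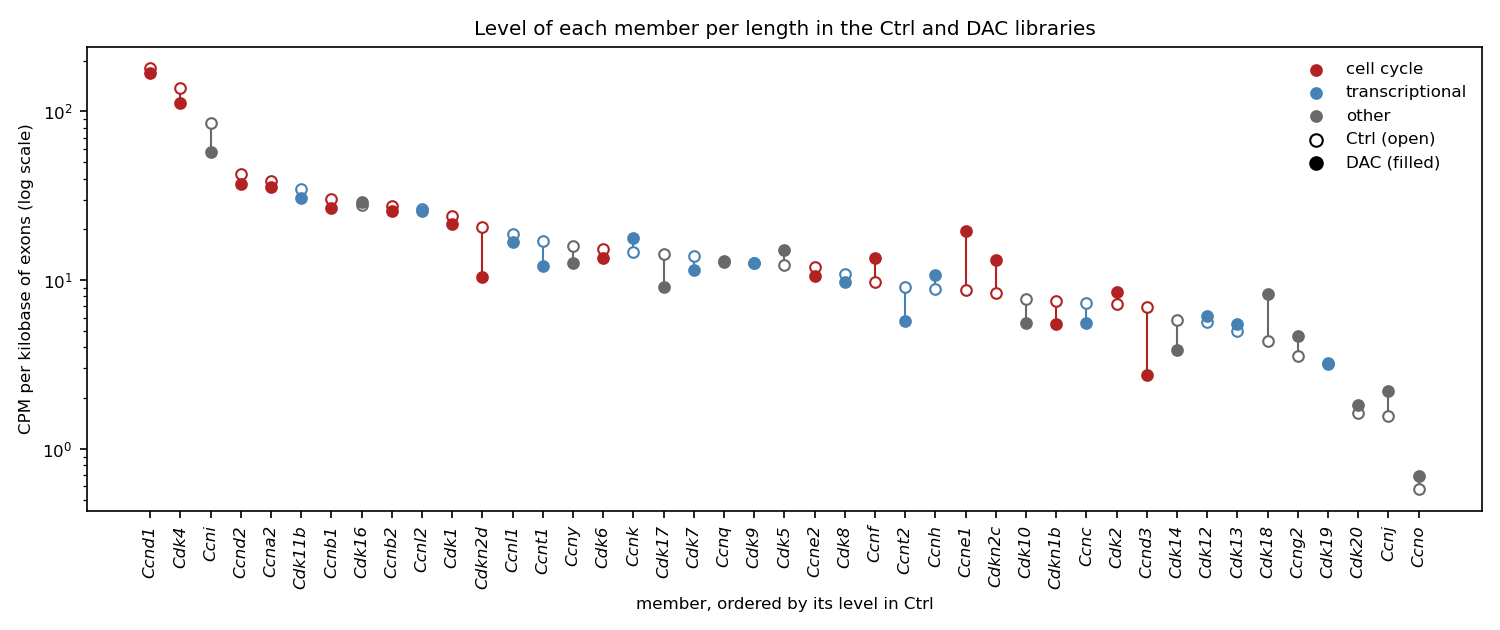
CPM per kilobase of exons (log axis) of the 43 members in Ctrl (open circles) and DAC (filled circles), ordered by Ctrl level and coloured by class. Ccnd1, Cdk4 and Ccni hold the top 3 places in both libraries, and Ccno is lowest at 0.574 and 0.687.

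Of the 13 remaining members past the CPM minimum, 0 were called higher, against 10.8% of all genes, and 0 lower, against 5.29%. Among the 9340 genes with a mean CPM of at least 10, which include most of these members, 390 were higher and 345 lower. The ratios of the 13 members ran from 0.644 (Cdk17) to 1.88 (Cdk18). Cdk16, Cdk17 and Cdk18 are the PCTAIRE kinases, close paralogs of which Cdk17 and Cdk18 lay on different sides of 1. Cdk18 had 669 counts in Ctrl and 1475 in DAC, with a ratio of 1.88 (1.71 to 2.06), and it was called higher by library totals, at a log2 ratio of 1.10. Cdk17 had 2775 and 2097 counts, a ratio of 0.644 (0.608 to 0.682), while Cdk16 had 3903 and 4760, at a ratio of 1.04 (0.996 to 1.08). Cdk14 is a membrane-associated kinase that cyclin Y activates in Wnt signalling. It had 3511 and 2737 counts, with a ratio of 0.664 (0.632 to 0.699), whereas Ccny had 3089 and 2896, a ratio of 0.799 (0.759 to 0.841). Ccni had the third highest level of all members, with 85.0 CPM per kb in Ctrl and 57.2 in DAC (ratio 0.672), and it shares 17.3% of its stretches with other genes. Ccnj and Ccng2 had ratios of 1.40 and 1.31. Ccno, which takes part in making multiciliated cells, was near the CPM minimum with 47 and 66 counts, a ratio of 1.20 (0.811 to 1.78). Cdk5, a kinase best known from neurons, had a ratio of 1.23 (1.13 to 1.35). Cdk10 had a ratio of 0.725, shares 13.4% of its stretches with other genes, and has 14.0% of its exon bases overlapped by others. It pairs with cyclin Q (Ccnq), which had a ratio of 0.997. Cdk20 had a ratio of 1.12 (0.969 to 1.28). In this class the median log2 ratio was 0.06 and the median size of the difference 0.39. Relative to all genes the median was 0.07, and it was -0.050 after GC centring.

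Levels per kb were ranked across the 43 members, and ranks of other genes were not compared. Between the libraries 20 of the members moved by at most 1 rank and 33 by at most 5. The longest moves were those of Ccne1, from rank 28 to 12, and Cdkn2d, from rank 12 to 26. Cdkn2c moved from rank 29 to 18 and Cdk17 from rank 18 to 28.

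Genes that act on the members were counted in 4 lists. Over all genes, 10.8% were higher in DAC and 5.29% lower by the call rule. Of 13 RB and E2F genes, 0 were called higher and 0 lower. Rb1, the retinoblastoma gene, had the lowest ratio of the list with 1319 and 863 counts, 0.558 (0.511 to 0.608). E2f8, an atypical E2F that represses E2F targets, had the highest with 1938 and 3918 counts, 1.72 (1.63 to 1.82). E2f1 had a ratio of 0.866 and its dimer partner Tfdp1 one of 1.02, and the 13 genes had a median log2 ratio of -0.10.

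Of 17 direct CDK regulators past the CPM minimum, 1 was called higher and 1 lower. Cdk5r1, which encodes p35, the activator of CDK5, had 50 counts in Ctrl and 162 in DAC, a ratio of 2.76 (2.0 to 3.87). Spdya, a cyclin-like activator of CDK2, had 44 and 22 counts, a ratio of 0.426 (0.243 to 0.726). Spdya passed the CPM minimum only through Ctrl (1.37 CPM, and 0.585 in DAC). Its call was lost with GC centring and with the interval taken from counts divided by 3. Among 15 genes for the turnover of cyclins and inhibitors, 0 were higher and 1 was lower. That gene was Cul4a, a ubiquitin ligase scaffold, with 8541 and 4709 counts, 2.13-fold lower, a call that was lost with library totals. The highest ratio of that list was 1.57 (1.46 to 1.69) for Fzr1, which encodes an activator of the anaphase-promoting complex. Of 18 partners of the transcriptional CDKs, 1 was higher, Med12l, a Mediator subunit, with 10 and 42 counts and a ratio of 3.58 (1.77 to 8.0), and 0 were lower. Med12l had 0.312 CPM in Ctrl and 1.12 in DAC, so it passed the CPM minimum only through the library where it was higher. Med13, which links the kinase module to Mediator, had the lowest ratio at 0.632 (0.605 to 0.661).

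**Figure D5:**
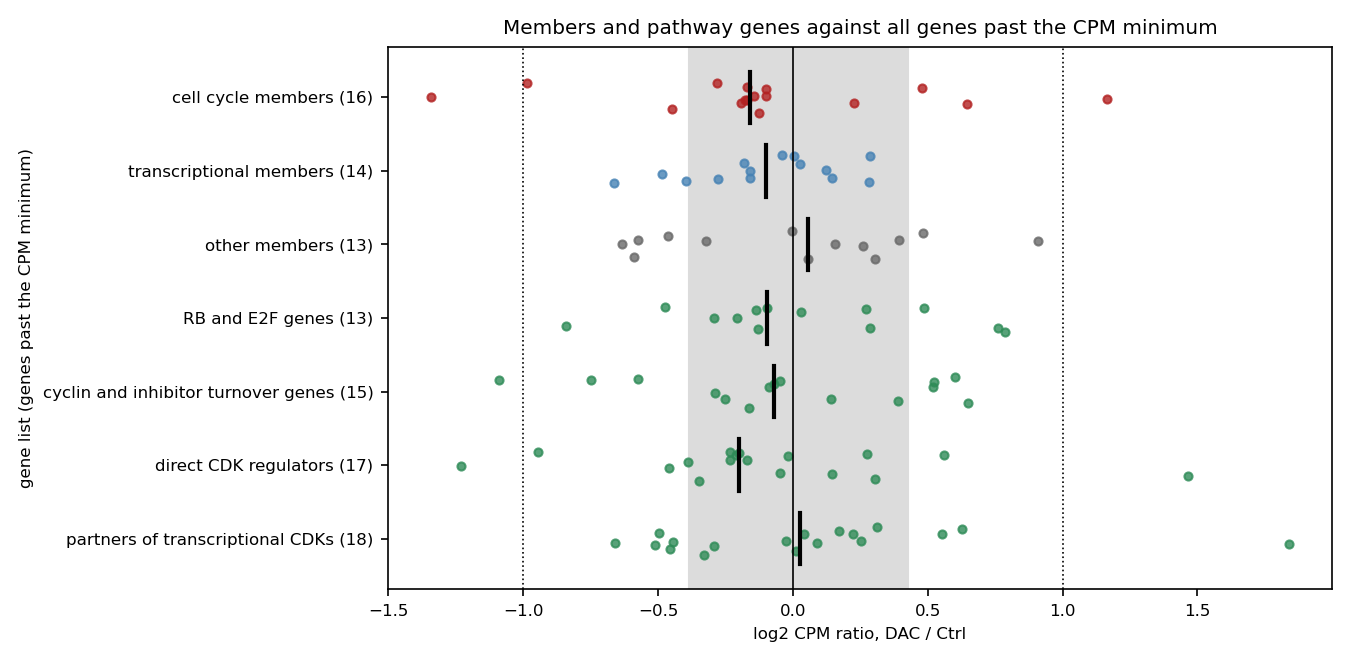
Log2 CPM ratio of DAC to Ctrl for each gene of the 3 member classes and the 4 pathway lists past the CPM minimum, with black bars at medians, a grey band for the middle of all 13545 genes (-0.39 to 0.43, the quartiles) and dotted lines at a 2-fold difference. Genes outside the dotted lines are 1 or 0 per list and direction, and the class medians are -0.16, -0.10 and 0.06; relative to all genes, the medians of the transcriptional and other classes turn sign after GC centring.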

How the data were processed

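RNA-seq libraries of DAC-treated and Ctrl CT26 cells were analysed, 1 of each. The authors deposited unnormalized whole-number counts per gene. Per the submitters' processing notes, the tools were STAR 2.5.3a and StringTie 1.3.1c with Trim Galore, FastQC, Cufflinks, DESeq and mm10. The study's methods describe an FPKM route, and the one that gave the counts was not stated. Of the gene IDs, 24122 matched GENCODE M21 (GRCm38) and 101 did not.

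CPM values were scaled with TMM factors from edgeR 4.0.16 (0.936 for Ctrl and 1.07 for DAC), under R 4.3.3. Ratios, intervals and summaries were computed with Python 3.11.15, scipy 1.17.1, numpy 2.4.6 and pandas 2.3.3. Intervals of the change in a pair's ratio are log odds ratio intervals. A count of 0 was set against 3 counts. The rule was tested on simulated libraries that held counting error only, so that test did not cover variation between cultures.

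Members and lists were chosen with earlier results of these data known. Counts and ratios are given for called members, D-, E-, A- and B-type cyclins, Cdk1, Cdk2, Cdk4, Cdk6 and inhibitors; levels and ratios for transcriptional members; other members by range, with the extremes; and pathway genes that were called or had the extreme ratio of their list. Further members and genes were named after their values were seen. Levels of different genes were compared per kilobase of merged GENCODE exons. The alternatives tried were DESeq2 1.42.0 size factors, library totals or upper-quartile factors, other folds and filters, counts divided by 3, centring in 20 GC bins, leaving out members with 10% or more shared 50-base stretches, and Cdk7 and Ccnh counted as cell cycle members. Recomputing the pathway counts under these scalings, and checking member directions and the size of class differences, was added after seeing the data.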

Additional observations from a re-analysis of the deposited data

How the results depend on the processing

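The counts of called members depended mainly on the fold. For cell cycle members, 2 were higher and 2 lower at 1.5-fold, and 0 and 0 at 4-fold, and GC centring gave 2 lower by adding Cdkn2d. For transcriptional members, 1 was lower at 1.5-fold. For the remaining members, 1 was higher at 1.5-fold and 1 with library totals (Cdk18), and 2 were lower at 1.5-fold. GC centring moved the median log2 ratio relative to all genes from -0.14 to -0.020 for cell cycle members and from -0.08 to 0.087 for transcriptional members. Over the alternatives to the counts and medians of the 3 classes, 76 values stayed within 1.5 times of the main count or near the main median. The other 11 did not, and none of these alternatives reversed a called direction. Part of the 76 had little or no room to differ. A common scaling factor hardly moves a median taken relative to all genes, and a stricter rule cannot change a count of 0. The direction of 15 members turned under at least 1 of 4 scaling or GC settings. No paired analysis was possible because each group had 1 library. Depth limited Ccno (47 and 66 counts) and Cdk15 (4 and 2), while differences between cultures were not measurable for any member.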
